A study of Ovis aries with 95 samples.

Results

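The change in gene expression between 80 and 145 d of gestation was set side by side in the cortex and the brainstem of fetal sheep. For every gene probe the change in cortex (145 d minus 80 d) was taken minus the change in brainstem, so that a value above 0 means that the level rose more, or fell less, in cortex. All 15008 gene probes of the array entered, and 16 of the 95 arrays of the series, 4 in each of the 4 groups. Probes past the threshold were then sorted by what they did in each region alone: opposite directions, 1 region only, or the same direction at a different pace.

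The series measured RNA from 4 brain regions of sheep fetuses at several ages and of newborn lambs, each sample on its own 1-colour array. The groups used here were cortex at 80 d, cortex at 145 d, brainstem at 80 d and brainstem at 145 d, all from fetuses of ewes not in labor and with no treatment named, the later age lying a few days before term. The cortex samples came from a piece of the frontal lobe and the brainstem was taken without further division. Each age included 1 set of twins that the labels do not mark, so the p-values measure the spread between these arrays, in which 2 animals of a group may share a mother. The methods give 4 fetuses per age for all 4 regions, so cortex and brainstem of an age came from the same animals, but the sources do not say which arrays match, and the 16 arrays were fitted as independent.

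The brainstem, which runs breathing, circulation and arousal, matures ahead of the cortex, and myelination starts in the hindbrain before it reaches the forebrain. Over the last part of gestation the cortex adds glia, synapses and inhibitory interneurons, while cell division fades in both places. A comparison of the 2 changes therefore shows which transcripts followed a shared course and which followed the region.

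The arrays were of even quality, with 74.6 to 88.5% of spots well above background and correlations of 0.987 to 0.996 between arrays of a group. Overall brightness did move with the comparison: the median net intensity was 185 to 272 in cortex at 80 d and 231 to 448 at 145 d, against 266 to 294 in brainstem at 80 d and 113 to 152 at 145 d. Each region was hybridized on 3 slides of its own and scanned on its own, so that region, slide and scan cannot be told apart, whereas both ages of a region shared its slides. The region labels were checked on HOXA5, a regional factor of the hindbrain and spinal cord: its probe was not well above background on any cortex array and read 10.95 ± 0.26 (SD, n = 4) in brainstem at 80 d and 9.41 ± 0.47 (SD, n = 4) at 145 d. All levels here are log2 values of background-corrected, quantile-normalized intensity, on which a difference of 1 is a 2-fold change, and they compare 1 probe across samples and not probes with each other.

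The difference between the regional changes passed an adjusted p of 0.05 for 5122 of the 15008 probes (34.1%), and an unadjusted p of 0.05 for 6346 (42.3%). Of the probes with an adjusted p under 0.05, the cortex change lay above the brainstem change in 2625 (17.5% of all probes). It lay below in 2497 (16.6% of all probes). Taken alone, cortex changed between the ages in 5422 probes (36.1%), 16.8% up and 19.3% down, and brainstem in 6426 (42.8%), 19.5% up and 23.3% down. The 4 arrays of the ages did not overlap for 31.9% of probes in cortex and 43.4% in brainstem. The last probe inside the threshold had a difference of -0.57 (adjusted p = 0.049995) and the first outside it, for the water channel AQP3, one of 0.49 (adjusted p = 0.0500174). Since the tissue was measured in bulk, more cells of a type and more RNA per cell cannot be told apart in any result below.

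Movement in opposite directions was found in 918 probes (6.12%). The level rose in cortex and fell in brainstem in 527 (3.51%), and did the reverse in 391 (2.61%). Many more, 3343 (22.3%), passed in 1 region only: 689 rose (4.59%) and 694 fell (4.62%) in cortex alone, and 954 rose (6.36%) and 1006 fell (6.7%) in brainstem alone. A further 670 (4.46%) moved the same way in both but by different amounts, 318 up (2.12%) and 352 down (2.35%), and 191 (1.27%) passed for the difference without passing in either region.

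**Figure D1:**
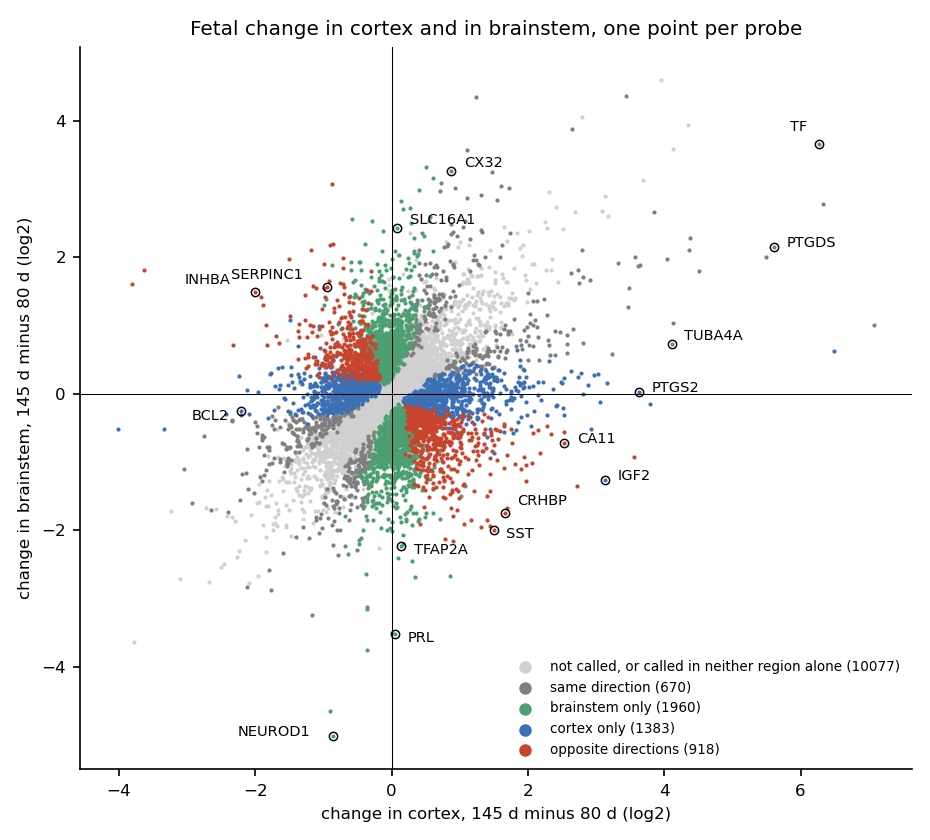
Change from 80 to 145 d in cortex (horizontal axis, log2) against the change in brainstem (vertical axis, log2), 1 point per probe, coloured by class, with the number of probes of each class in the legend and the leading named genes circled. The 918 probes that moved in opposite directions fill the upper left and lower right, SST and CRHBP on one side and INHBA and SERPINC1 on the other, and the 3343 probes of 1 region lie along the axes.

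These counts depend on how the arrays are put on one scale. When each array was centred on its median and not quantile normalized, 374 probes passed, 372 of them among the 5122, and 32.1% of the calls lay above in place of 51.2%. The median over all probes was then -0.27 for the cortex change and 0.38 for the brainstem change. The sign of the difference was kept in 4727 of the 5122 probes and in 901 of the 918 of the opposite class. Both regions kept their direction in 816 of those 918, and 26 probes passed as opposite under that centring. Of the 689 rises in cortex only, 557 kept the sign of the difference. A fit over all 95 arrays, which takes its spread from every group of the series, called 1489.

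Arrays of animals of other groups, at ages inside the interval gave the same measure independently of these 16, although they were hybridized on the same slides and normalized together. The difference between regions was computed again from 130 d minus 100 d, where 1281 probes passed (8.54%). Of the 5122 probes, 4678 had the same sign there (91.3%), against 72.9% of all probes, and all 1115 of them that passed there had the same sign. In the opposite class 896 of 918 had the same sign (97.6%) and 360 passed. Both regions moved in their own direction again in 568 of these 918 (61.9%), against 48.3% of all probes.

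Among the probes with a gene name, SST and CRHBP had the largest differences of those that rose in cortex and fell in brainstem, and INHBA and SERPINC1 of those that did the reverse. Their probes, as deposited, are shown for that reason:
SST: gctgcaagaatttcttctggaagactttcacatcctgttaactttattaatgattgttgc
CRHBP: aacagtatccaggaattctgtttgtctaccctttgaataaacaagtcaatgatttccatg
INHBA: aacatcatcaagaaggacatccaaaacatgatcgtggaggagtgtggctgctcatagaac
SERPINC1: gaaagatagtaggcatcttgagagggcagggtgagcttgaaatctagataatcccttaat

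SST encodes somatostatin, the peptide of a large class of cortical inhibitory neurons. Its level in cortex was 13.48, 12.98, 13.75 and 13.79 at 80 d and 14.56, 15.12, 15.05 and 15.25 at 145 d. In brainstem it was 14.44, 14.39, 14.75 and 14.04 at 80 d and 12.96, 12.99, 11.51 and 12.21 at 145 d. The ages did not overlap in either region, and the region with the higher level changed from brainstem to cortex. SST rose by 1.5 (SE 0.29) in cortex and fell by 1.99 (SE 0.29) in brainstem, a difference of 3.49 (SE 0.41, adjusted p = 1.64e-05). The second SST probe gave 3.38.

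CRHBP encodes the protein that binds corticotropin-releasing hormone and holds it inactive. Cortex read 9.74, 9.22, 9.43 and 9.58 at 80 d and 11.47, 11.69, 10.80 and 10.69 at 145 d, whereas brainstem lay between 9.83 and 10.46 at 80 d and read 9.22, 8.37, 8.12 and 8.03 at 145 d. As for SST, no array of one age reached into the range of the other. The rise of 1.67 in cortex and the change of -1.75 in brainstem differed by 3.41 (SE 0.37, adjusted p = 7.95e-06), and the second probe by 3.38.

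Over the intermediate ages both genes moved step by step. SST in cortex had means of 13.96 at 100 d, 14.17 at 120 d and 15.13 at 130 d, and in brainstem of 14.25, 13.50 and 13.13, so that the lines crossed between 100 and 120 d. CRHBP crossed earlier, with 9.99 in cortex and 9.38 in brainstem already at 100 d.

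CPE, the carboxypeptidase that trims peptide precursors to their active form, moved likewise on both of its probes. The leading probe had means of 13.28 ± 0.55 and 14.53 ± 0.49 (SD, n = 4) in cortex and of 14.58 ± 0.20 and 13.74 ± 0.08 (SD, n = 4) in brainstem, a difference of 2.09 (adjusted p = 0.000301). NPY, neuropeptide Y, was also opposite on both probes, with a change of 0.71 in cortex, of -1.11 in brainstem and a difference of 1.82 (adjusted p = 0.000326) on the first.

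CA11 encodes a protein of the carbonic anhydrase family that lacks the enzyme's activity. In cortex its 4 arrays lay between 11.64 and 12.21 at 80 d and between 14.12 and 14.58 at 145 d. In brainstem the ranges of 12.76 to 13.48 and 11.95 to 12.85 overlapped. The changes of 2.53 and -0.73 differed by 3.26 (SE 0.29, adjusted p = 1.9e-06).

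AREG, amphiregulin, a ligand of the epidermal growth factor receptor, went from 7.81 ± 0.29 to 9.45 ± 0.31 in cortex and from 8.66 ± 0.07 to 7.58 ± 0.38 in brainstem (mean ± SD, n = 4). Neither region's ages overlapped, and the difference was 2.73 (SE 0.27, adjusted p = 3.64e-06). IGFBP6, which binds insulin-like growth factor 2, rose by 1.5 in cortex and fell by 0.75 in brainstem, a difference of 2.25 (SE 0.26, adjusted p = 1.57e-05).

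INHBA led the reverse pattern. It encodes the activin A subunit, a signal of the TGF-beta family. Cortex read 13.07, 11.91, 13.36 and 12.14 at 80 d and 10.57, 10.66, 10.75 and 10.50 at 145 d. Brainstem read 9.71, 9.48, 9.38 and 9.49 at 80 d and 11.19, 10.85, 11.13 and 10.84 at 145 d. All cortex arrays lay above all brainstem arrays at 80 d and below them at 145 d, with cortex falling by 2.00 (SE 0.24) and brainstem rising by 1.49 (SE 0.24). The difference of -3.49 (SE 0.34) had an adjusted p of 3.64e-06, and the second probe gave -3.33.

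SERPINC1 encodes antithrombin, an inhibitor of clotting enzymes made mainly by the liver. Its levels in cortex were 8.51, 8.54, 8.75 and 8.21 and later 7.50, 7.41, 7.68 and 7.61. In brainstem they were 7.78, 7.84, 7.83 and 7.87 and later 8.93, 9.34, 9.69 and 9.59. The ages were separate in both regions, and the difference was -2.51 (SE 0.20, adjusted p = 6.84e-07). Its brainstem change at 130 d against 100 d was only -0.03, beside -0.65 in cortex.

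GGTA1, the enzyme that adds the alpha-gal sugar to glycoproteins, lay at 11.52, 11.56, 10.85 and 10.82 in cortex at 80 d and at 10.44, 9.74, 9.76 and 9.36 at 145 d. The brainstem arrays went from 10.92 ± 0.07 (SD, n = 4) to 11.94, 11.48, 12.48 and 11.86. Starting from overlapping levels, the regions drew apart by -2.39 (SE 0.34, adjusted p = 7.53e-05), and the second probe gave -2.07.

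SLIRP, DKC1 and TM7SF2 followed the same reverse pattern by smaller amounts. SLIRP, which stabilizes mitochondrial messengers, changed by -1.27 in cortex and 0.52 in brainstem, a difference of -1.79 (adjusted p = 3.97e-06). DKC1, the dyskerin that modifies ribosomal RNA and holds telomerase RNA, changed by -1.11 and 0.48, with a difference of -1.59 (adjusted p = 0.000156). TM7SF2, a reductase of cholesterol synthesis, changed by -0.58 and 0.94, with a difference of -1.53 (adjusted p = 5.01e-05).

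**Figure D2:**
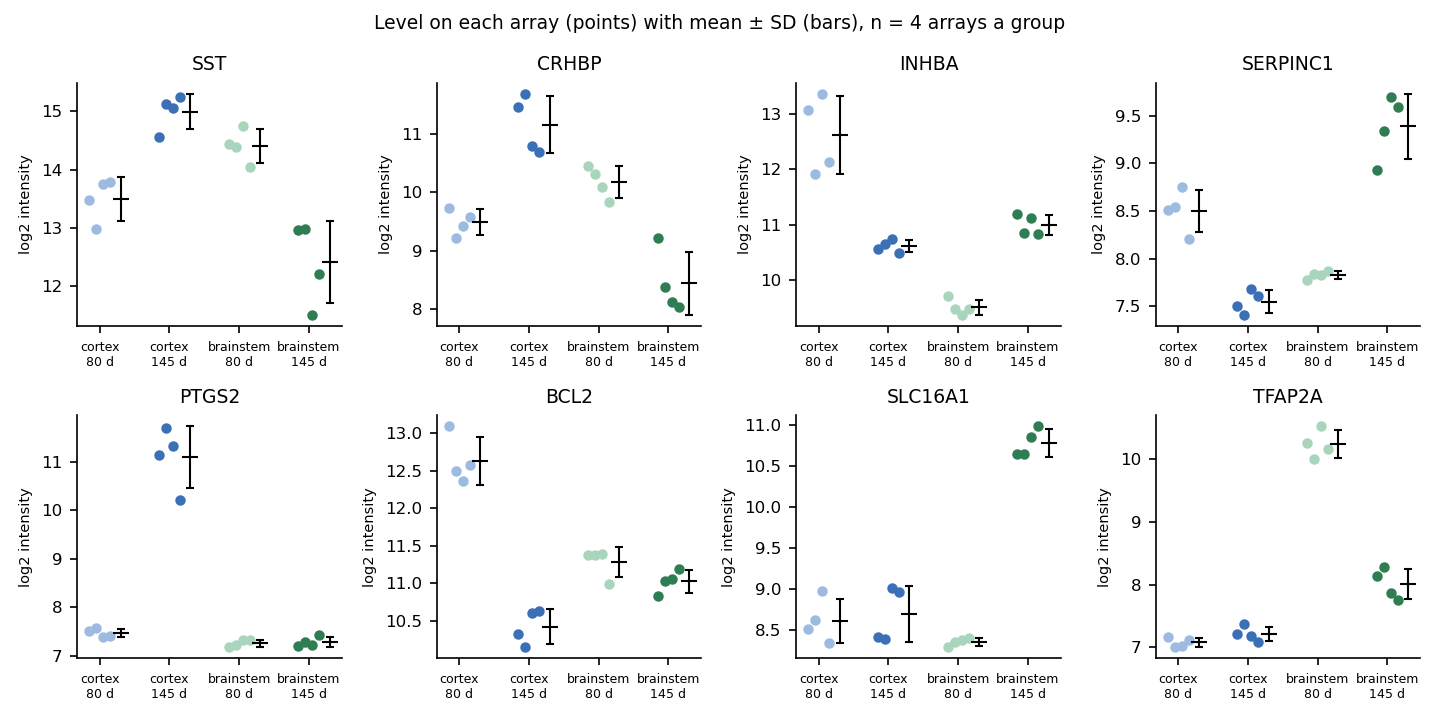
Level (vertical axis, log2 intensity) of 8 genes on each array, with points for the 4 arrays of a group and bars for their mean ± SD. SST and CRHBP rise in cortex and fall in brainstem, INHBA and SERPINC1 do the reverse, PTGS2 and BCL2 move in cortex, and SLC16A1 and TFAP2A in brainstem.

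IGF2, PTGS2, GJB2, ADCYAP1 and FOS had the largest differences among the 99 named probes that rose in cortex only. The probes shown here are, in order, those of a cortex rise, a cortex fall, a brainstem rise and a brainstem fall:
PTGS2: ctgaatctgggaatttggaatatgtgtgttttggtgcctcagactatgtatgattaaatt
BCL2: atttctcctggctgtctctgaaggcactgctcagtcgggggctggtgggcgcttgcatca
SLC16A1: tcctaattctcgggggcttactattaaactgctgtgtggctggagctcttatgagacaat
TFAP2A: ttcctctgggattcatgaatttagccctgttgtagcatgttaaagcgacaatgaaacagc

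PTGS2 encodes cyclooxygenase 2, the inducible enzyme of prostaglandin synthesis, which excitatory cortical neurons make in response to activity. Its level in cortex was 7.52, 7.57, 7.39 and 7.42 at 80 d and 11.15, 11.71, 11.33 and 10.22 at 145 d. In brainstem all 8 arrays lay between 7.18 and 7.43. Cortex rose by 3.63 (SE 0.21) and brainstem changed by 0.02 (95% interval -0.42 to 0.47), a difference of 3.60 (SE 0.30, adjusted p = 9.25e-07). The cortex means climbed through 7.74, 8.86 and 10.02 at 100, 120 and 130 d. A second PTGS2 probe, not well above background in cortex at 80 d or at either age in brainstem, did not pass (difference 0.40, adjusted p = 0.123).

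ADCYAP1 encodes PACAP, a peptide that raises cyclic AMP in its target cells. Cortex went from 10.08, 9.96, 10.32 and 9.51 to 12.32, 12.96, 13.86 and 12.86. Brainstem, at 11.81 ± 0.15 and 12.10 ± 0.31 (SD, n = 4), overlapped between ages. The difference was 2.74 (SE 0.36, adjusted p = 4.64e-05) and that of the second probe 2.48. The cortex mean was still 9.59 at 100 d and had reached 11.93 at 130 d.

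FOS, the transcription factor induced within minutes of stimulation, rose by 2.97 (SE 0.16) in cortex, from 8.79 ± 0.27 to 11.76 ± 0.18 (SD, n = 4). In brainstem it read 9.91 ± 0.32 and 10.18 ± 0.21 (SD, n = 4). The difference was 2.70 (SE 0.23, adjusted p = 1.35e-06), and the 3 other FOS probes passed in the same class with differences of 0.60 to 1.87. The smallest of these was read by a probe that was not well above background in cortex at 80 d. Under median centring 1 FOS probe changed sign.

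IGF2, the insulin-like growth factor of fetal life, showed the largest difference among the probes with a gene name, 4.39 (SE 0.75, adjusted p = 0.000366), with wide spread. Cortex read 8.98, 8.05, 8.91 and 8.85 at 80 d and 12.10, 13.32, 10.67 and 11.23 at 145 d. Brainstem read 13.97, 13.85, 13.55 and 12.94 and then 12.10, 13.05, 10.93 and 13.19, overlapping between the ages (change -1.26, adjusted p = 0.0695). A second IGF2 probe passed in opposite directions, with changes of 1.07 and -1.32. IGF2 is also made by the choroid plexus and meninges, whose lists are given below, and their part in this result was not tested.

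GJB2, the gap junction protein connexin 26, rose by 2.88 (SE 0.26) in cortex, where the arrays of 7.90 to 8.64 and 10.43 to 11.63 stood apart. The brainstem change was 0.12 and the difference 2.76 (SE 0.36, adjusted p = 4.35e-05). Of its 4 other probes, 3 fell in the same class and 1 rose in both regions (4.05 and 1.97).

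BCL2, which blocks apoptosis, fell in cortex only on its leading probe. Cortex read 13.09, 12.50, 12.36 and 12.57 at 80 d and 10.32, 10.15, 10.60 and 10.63 at 145 d. Brainstem read 11.38, 11.38, 11.39 and 10.99 and then 10.83, 11.03, 11.06 and 11.19. The changes of -2.21 and -0.26 differed by -1.95 (SE 0.22, adjusted p = 1.05e-05). The second probe passed as a fall in both regions, -2.33 and -0.40. At 130 d against 100 d the changes were alike, -0.94 and -0.92.

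GRIA1, the AMPA receptor subunit of excitatory synapses, was less firm. Cortex read 10.94, 10.39, 10.88 and 9.30 and then 9.48, 9.59, 6.78 and 8.55, which overlap, and brainstem 9.57 ± 0.18 and 9.87 ± 0.40 (SD, n = 4). The difference of -2.07 (SE 0.70) had an adjusted p of 0.0329, and the second probe gave -1.49 (adjusted p = 0.0178). The call on the first was lost without cortex replicate 1 or 3 at 80 d, cortex replicate 4 at 145 d, brainstem replicate 1 or 2 at 80 d or brainstem replicate 3 or 4 at 145 d, where the difference was -1.88 to -2.06 (adjusted p = 0.0508 to 0.0661). A related subunit, GRIA3, rose by 1.36 in brainstem alone, with arrays of 9.14 to 9.27 and 10.24 to 10.73, and had a difference of -1.76 (adjusted p = 0.0005).

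The remaining falls in cortex were smaller. IDH1, which supplies NADPH in the cytosol, changed by -1.31 in cortex and -0.26 in brainstem (difference -1.05, adjusted p = 0.00178). RPS26, a protein of the small ribosomal subunit, changed by -0.94 and 0.22 (difference -1.16, adjusted p = 0.000483), and its other probes gave -0.88 and -1.09. COL4A3, a basement membrane collagen, changed by -0.97 and 0.39 (difference -1.36, adjusted p = 0.00177).

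SLC16A1 encodes MCT1, which carries lactate and ketone bodies into and out of cells. In brainstem its level rose from 8.29, 8.36, 8.38 and 8.40 to 10.64, 10.64, 10.85 and 10.98. In cortex the 8 arrays overlapped between ages, at 8.51, 8.62, 8.98 and 8.34 and at 8.42, 8.39, 9.01 and 8.96. Brainstem rose by 2.42 (SE 0.15) and cortex changed by 0.09 (95% interval -0.24 to 0.41), a difference of -2.33 (SE 0.22, adjusted p = 2.55e-06). A second probe, not well above background in cortex or in brainstem at 80 d, did not pass (difference -0.14, adjusted p = 0.23).

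TFAP2A encodes AP-2 alpha, a transcription factor of neural crest derivatives and some hindbrain neurons. Brainstem lay at 10.23 ± 0.22 (SD, n = 4) at 80 d and read 8.13, 8.28, 7.86 and 7.75 at 145 d. Every cortex array lay between 7.01 and 7.37. Brainstem fell by 2.23 (SE 0.12), cortex changed by 0.14, and the difference of 2.37 (SE 0.17) had an adjusted p of 3.86e-07, with 2.36 on the second probe.

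NEUROD1, a transcription factor of differentiating neurons, fell steeply in brainstem. Brainstem read 12.97, 11.45, 14.18 and 13.95 at 80 d and 8.92, 8.37, 7.69 and 7.50 at 145 d. Cortex read 12.49, 12.08, 11.93 and 11.76 and then 11.24, 11.28, 11.01 and 11.32. The ages did not overlap in either region, although the cortex change of -0.85 did not pass (adjusted p = 0.173). Brainstem fell by 5.02 (SE 0.46) and the difference was 4.17 (SE 0.65, adjusted p = 0.000174). Most of the brainstem fall was over by 100 d, where the mean was 9.74, and the difference at 130 d against 100 d was 0.70.

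TAC1, the precursor of substance P, fell by 1.5 (SE 0.39) in brainstem, from 12.87, 12.99, 12.36 and 12.61 to 11.21, 11.15, 11.04 and 11.41. Cortex read 8.01, 10.35, 8.14 and 8.35 and then 9.20 to 10.15, so that 1 array at 80 d lay above all 4 at 145 d. The cortex change of 1.01 narrowly missed the threshold (adjusted p = 0.0539), and the difference was 2.52 (SE 0.55, adjusted p = 0.00226).

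PRL, prolactin, read 11.11, 11.12, 11.68 and 11.78 in brainstem at 80 d and 7.61, 9.71, 6.98 and 7.33 at 145 d. Cortex stayed between 6.73 and 7.32. The difference was 3.56 (SE 0.59, adjusted p = 0.00028). PRL is known as a hormone of the anterior pituitary. Of 4 other pituitary genes looked up after these values were seen, GH, CGA, FSHB and POU1F1, the 7 probes read between 6.19 and 6.74 on the 16 arrays.

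SERPINA1, the liver-made antitrypsin, was high on only some arrays. In brainstem at 80 d it read 7.50, 8.64, 11.57 and 10.91, and at 145 d it was not well above background on any array, a change of at least 8.60-fold, or 3.10 on the log2 scale. In cortex 1 of 4 arrays was well above background at 80 d, at 7.52, and none at 145 d. The difference was 2.79 (SE 0.89, adjusted p = 0.0235), and its sign was not kept at 130 d against 100 d (-0.05). The same 2 brainstem arrays carried the plasma protein ALB at 9.99 and 9.74, against at most 7.59 on the other 2. Without both arrays the SERPINA1 difference was 1.21 (adjusted p = 0.0313).

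**Figure D3:**
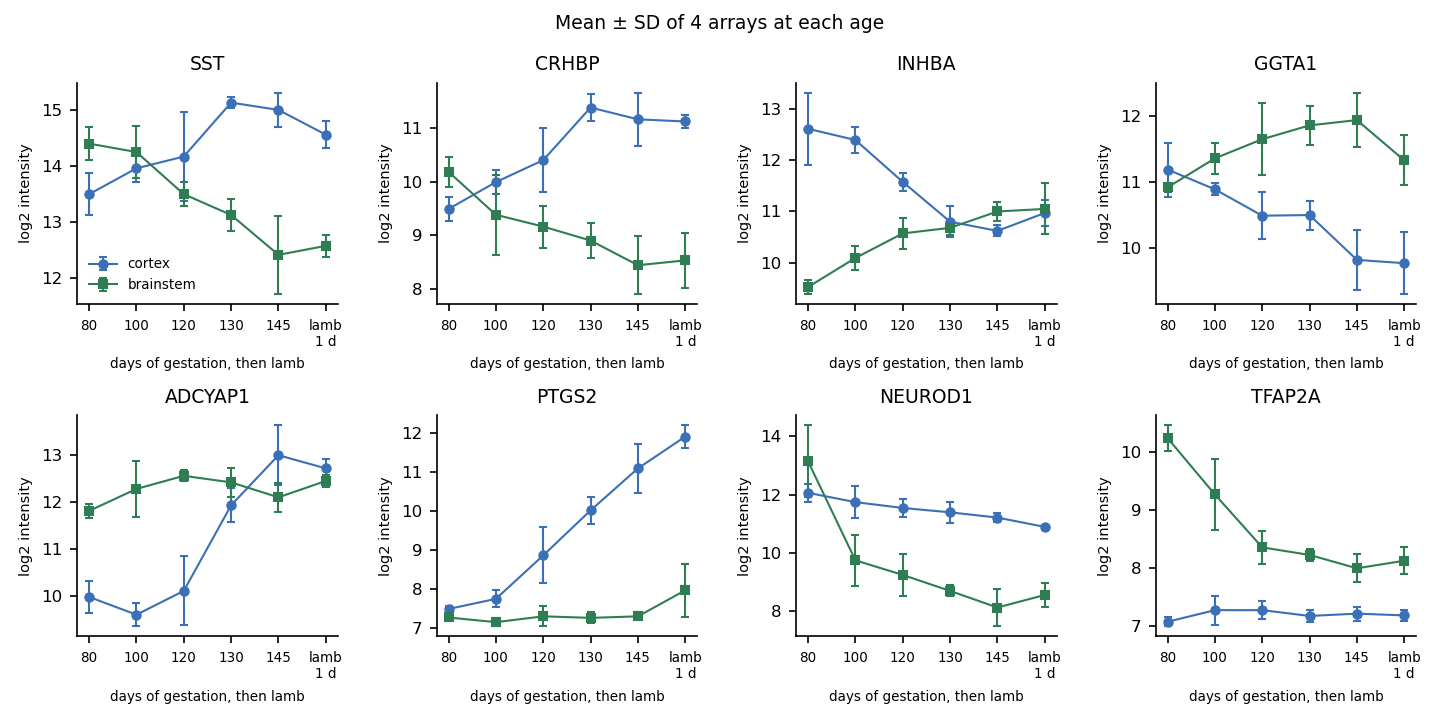
Mean ± SD of the 4 arrays at each age (vertical axis, log2 intensity) for 8 genes, from 80 to 145 d of gestation and in lambs 1 d after birth (horizontal axis), in cortex (circles) and brainstem (squares). SST, CRHBP and INHBA cross between regions, GGTA1 parts, ADCYAP1 and PTGS2 climb in cortex, and NEUROD1 and TFAP2A fall in brainstem.

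Genes that moved the same way in both regions differed in pace. TF, transferrin, the iron carrier made by oligodendrocytes and choroid plexus, rose by 6.27 (SE 0.21) in cortex and 3.66 (SE 0.21) in brainstem, a difference of 2.61 (adjusted p = 1.12e-05). The cortex arrays started at 8.40 to 9.32 and ended at 15.07 to 15.41, and those of brainstem started at 13.48 to 14.42 and ended at 17.12 to 17.64. PTGDS, which makes prostaglandin D2 and is secreted into cerebrospinal fluid, rose by 5.62 and 2.15, a difference of 3.47 (SE 0.34, adjusted p = 3.46e-06). TUBA4A, an alpha tubulin, rose by 4.11 and 0.72, a difference of 3.39 (SE 0.23, adjusted p = 2.07e-07).

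The 2 gap junction genes of this class went opposite ways in their difference. CX32, the connexin of myelinating cells, read 6.73, 6.76, 6.80 and 6.84 in cortex at 80 d and 7.65, 7.55, 7.51 and 7.92 at 145 d. In brainstem it read 7.21, 7.12, 7.19 and 7.15 and then 10.57, 10.43, 10.35 and 10.38. The rise of 0.87 in cortex and of 3.26 in brainstem differed by -2.39 (SE 0.12, adjusted p = 1.32e-08). The brainstem mean had already reached 10.42 at 120 d, when cortex was at 7.06. CONNEXIN 43, the connexin of astrocytes, rose by 2.39 in cortex and 0.57 in brainstem, a difference of 1.82 (SE 0.23, adjusted p = 3.5e-05).

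Gene lists place these genes among their relatives. Of the 1562 probes with a gene name, 509 passed for the difference (32.6%), 330 above and 179 below. Over all probes 34.1% passed, 17.5% above and 16.6% below, and these shares are set beside the lists. The lists hold named probes only, and the named probes as a whole already lay above more often than below. A tilt of a list to above is to be read beside that. The median difference was -0.03 over all probes and 0.04 over the named ones. In the neuropeptide list 14 of 24 probes passed (58.3%), 12 above and 2 below, and the median difference was 0.57. The 2 below were both of OXT, oxytocin (-0.56 on each). The 6 opposite probes of the list were those of SST, NPY and CPE, and GAL, galanin, fell in brainstem only on both of its probes (differences 0.85 and 0.88). Under median centring all 14 probes of the list that had passed kept their sign, and 2 kept their call.

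Astrocyte genes passed in 10 of 14 probes, all 10 above, with a median difference of 0.86, although both VIM probes among them changed sign under median centring. Under that centring 1 of the 10 kept its call. Of the 14, 12 rose in cortex and 10 in brainstem. GFAP, the astrocyte filament, rose by 2.74 and 1.81, a difference of 0.92 (adjusted p = 0.0282). The GFAP call was lost without cortex replicate 1 or 3 at 80 d or 1 or 2 at 145 d, or brainstem replicate 1 or 2 at 80 d or 2 or 4 at 145 d (adjusted p = 0.0518 to 0.0602). EAAT1, a glutamate transporter, rose by 1.77 in cortex and changed by -0.10 in brainstem (difference 1.87, adjusted p = 0.000192), and EAAT2 rose by 2.23 and 1.38 (difference 0.85, adjusted p = 0.000767). The mean of 12 astrocyte probes was 9.06 to 9.28 and 10.83 to 10.96 in cortex and 10.22 to 10.43 and 11.14 to 11.24 in brainstem at the 2 ages.

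Oligodendrocyte genes did not move as one in the difference. TF and CD81 lay above (2.61 and 0.89), and CX32 and CRYAB below (-2.39 and -0.92), with 4 of 6 probes past the threshold and a median of -0.63. The CRYAB call was lost without cortex replicate 3 at 80 d, cortex replicate 1 or 2 at 145 d or brainstem replicate 3 at 80 d (adjusted p up to 0.0554). Cell cycle genes fell in both regions, 9 of 11 probes in cortex and 10 in brainstem. For the difference 3 passed (27.3%): CCNA2 (0.98) and TYMS (0.90) fell more in brainstem and PCNA (-0.51) more in cortex. The PCNA call was lost in 7 of the fits without 1 array (adjusted p up to 0.0601), those without cortex replicate 2 or 4 at 80 d, cortex replicate 2 at 145 d, brainstem replicate 1 or 2 at 80 d or brainstem replicate 3 or 4 at 145 d.

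Immediate early and stress genes passed in 12 of 15 probes, all above, with a median of 0.80. Under median centring 10 of the 12 kept the sign of the difference, and a probe each of FOS and EGR1 turned. Both regions kept their direction in 6 of the 12, and 1 probe kept its call. HSP90AA1, a heat shock chaperone, changed by 0.70 in cortex and fell by 0.83 in brainstem (difference 1.53, adjusted p = 0.00513). HSPA5, the chaperone of the endoplasmic reticulum, rose by 0.35 and fell by 0.61 (difference 0.96, adjusted p = 0.000126). HSP70.1, an inducible chaperone, rose in cortex only, by 0.97 (difference 1.61, adjusted p = 0.0209).

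Lysosomal genes passed in 10 of 15 probes (66.7%), 9 above and 1 below, with a median of 0.74. CTSB, a cathepsin, rose by 0.75 in cortex and fell by 1.00 in brainstem, a difference of 1.76 (adjusted p = 2.72e-05). PSAP, the precursor of the activators of sphingolipid breakdown, rose by 0.90 and fell by 0.64 (difference 1.55, adjusted p = 8.02e-05). The exception was NPC2, a carrier of cholesterol out of lysosomes, which rose in brainstem only (0.82, difference -0.75, adjusted p = 0.00384). Under median centring all 10 lysosomal probes that had passed kept their sign, but 0 kept their call.

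Glycolysis and glucose uptake genes passed in 10 of 11 probes, 7 above and 3 below. LDHA, the lactate dehydrogenase subunit, rose by 0.78 in cortex and fell by 1.27 in brainstem on its leading probe (difference 2.05, adjusted p = 1.49e-05). ALDOA, an aldolase, rose in cortex only, by 1.49 (difference 1.54, adjusted p = 2.03e-05), and HK1, a hexokinase, in brainstem only, by 1.39 (difference -1.57, adjusted p = 0.00261). The other 2 below were the GAPDH probes described further on, for which the strand of the transcript was not tested. Fatty acid and cholesterol synthesis genes passed in 7 of 14 probes, of which ACLY (-1.24), SCD (-1.28), SCD5 (-0.69) and the 2 probes of SQLE (-0.70 and -1.03) lay below.

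Stress hormone genes included opposite signs. Of 10 probes 9 passed, 6 above and 3 below. Beside CRHBP, HSD11B2, which inactivates cortisol, was not well above background in cortex and changed by -0.92 in brainstem (difference 1.11, adjusted p = 0.0282). Its difference was 0.73 without brainstem replicate 3 at 80 d and its call was lost without brainstem replicate 4 at 145 d (adjusted p = 0.052). HSD11B1, which regenerates cortisol, fell by 0.43 and 0.92 (difference 0.49, adjusted p = 0.00786). VDUP1, a regulator of thioredoxin and glucose uptake, rose in brainstem only on both probes (differences of -0.89 each). NR3C1, the glucocorticoid receptor, rose in brainstem only, by 0.55 (difference -0.47, adjusted p = 0.00997).

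Vessel and oxygen genes passed in 9 of 28 probes, 5 above and 4 below, a share of 32.1% near the 34.1% of all probes. VEGFA, the main vascular growth factor, rose in brainstem only, by 1.36 on its leading probe (difference -1.37, adjusted p = 0.00047), and ANGPT1, which steadies vessels, rose there by 0.77 and fell by 0.42 in cortex (difference -1.19, adjusted p = 0.000382). ABCG2, an efflux pump of brain capillaries, rose in brainstem only, by 0.86 (difference -0.98, adjusted p = 0.0245), a call lost without cortex replicate 1 or 2 at 145 d or brainstem replicate 1 or 4 at 80 d or 2 at 145 d (adjusted p up to 0.0529). HIF1A, the oxygen-regulated factor, fell by 0.47 in brainstem only (difference 0.70, adjusted p = 0.00421).

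Growth factors and their binding proteins passed in 25 of 64 probes (39.1%, against 34.1% of all probes), 20 above and 5 below, 9 of them in opposite directions. FGFR1, a fibroblast growth factor receptor, rose by 0.42 and fell by 0.98 on its opposite probe (difference 1.40, adjusted p = 1.72e-05), whereas FGFR2 rose in brainstem only, by 0.62 (difference -0.58, adjusted p = 0.00121). TGFB1 rose by 0.37 and fell by 0.42 (difference 0.79, adjusted p = 0.00209). Under median centring 19 of the 25 kept their sign and 5 their call. Hormone and transmitter receptors passed in 4 of 34 probes (11.8%), below the 34.1% of all probes. Their mean level was only 6.97 to 7.04 in the 4 groups, and 6 of the 34 were never well above background. A low share and a weak signal cannot be told apart here.

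In the immune lists B2M, the invariant chain of MHC class I, rose by 1.41 and 1.36 in cortex only (differences 1.49 and 1.51). FCER1G, a signalling chain of microglia, rose in cortex only on both probes (1.34 and 1.13, differences 1.32 and 1.11). In all, 6 of 19 microglia and myeloid probes passed, 5 above, 3 of 9 antigen presentation probes, all above, and 4 of 18 lymphocyte probes, 2 each way. These shares of 31.6, 33.3 and 22.2% did not exceed the 34.1% of all probes.

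The remaining lists were short. Regional factors of brainstem and spinal cord passed in 4 of 6 probes, all above, each being HOXA4 or HOXA5, whose level in brainstem fell. The cortex regional list held only the 2 NEUROD1 probes, both above. Their mean was 11.73 in cortex and 12.75 in brainstem at 80 d, and 10.85 and 7.92 at 145 d. At 80 d they therefore did not set cortex apart. Glutamate and GABA genes passed in 3 of 10 probes (30.0%), all below and all GRIA1 or GRIA3. Mitochondrial and muscle genes each passed in 3 of 8 (37.5%), 1 above and 2 below. These shares lie near the 34.1% of all probes. By limma none of 3 monoamine and cholinergic probes passed, with 0 at an unadjusted p of 0.05, and none of 4 blood cell probes, with 1 at an unadjusted p of 0.05. No gene of the synapse and axon list carried a name on this array.

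**Figure D4:**
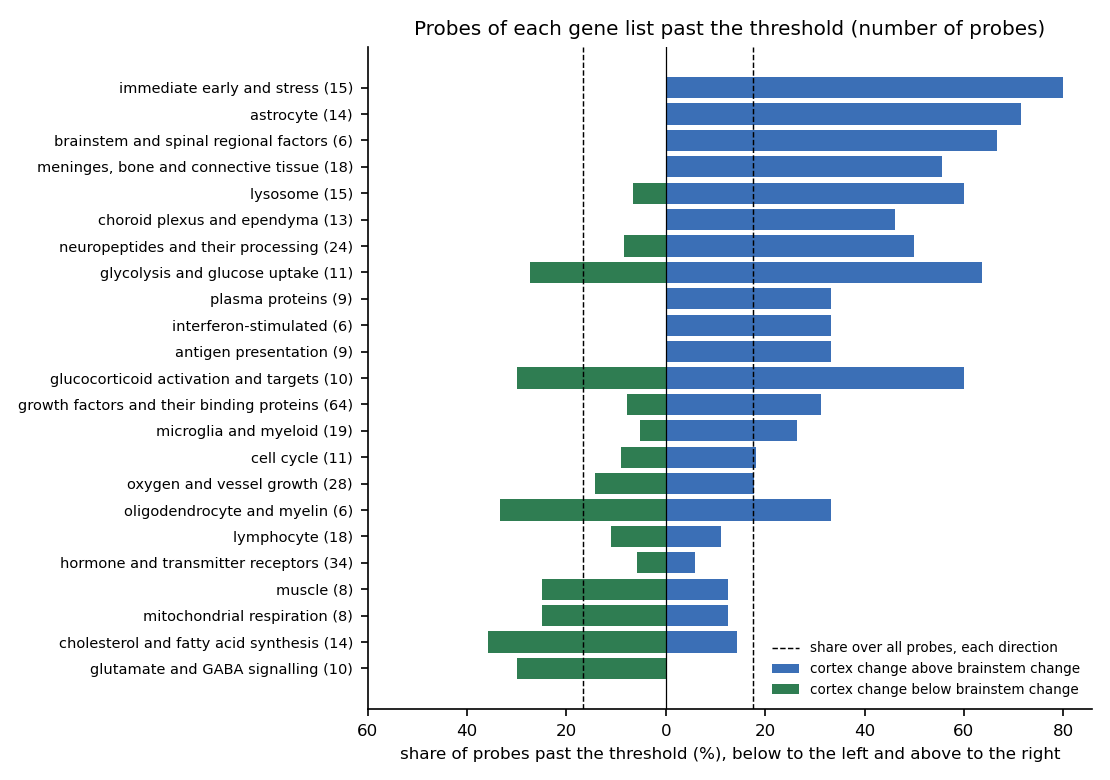
Share of the probes of each gene list past the threshold for the difference (horizontal axis, percent), to the right where the cortex change lay above the brainstem change and to the left where it lay below, with the number of probes in brackets and dashed lines at the shares over all probes (17.5 and 16.6%). Lists with under 6 probes or with no probe past the threshold are left out, and the immediate early, astrocyte and meninges lists are among those that lie to the right only. Of the 1562 named probes, from which the lists were drawn, 330 passed to the right and 179 to the left.

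Markers of tissues around the brain were followed as well. The mean of 12 choroid plexus and ependyma probes went from 8.49 to 8.66 at 80 d to 9.58 to 10.07 at 145 d in cortex, and from 10.12 to 10.50 to 9.97 to 10.45 in brainstem. Of the list's 13 probes 6 passed (46.2%), all above. Under median centring 5 of the 6 kept their sign, CLDN2 turning, and 1 kept its call. The mean of 18 probes of meninges, bone and connective tissue went from 7.90 to 8.11 to 8.08 to 8.20 in cortex and from 8.58 to 8.77 to 8.28 to 8.58 in brainstem. Of these 18 probes 10 passed (55.6%), all above. Under median centring 8 of the 10 kept their sign, MMP2 and COL3A1 turning, and 2 kept their call. Both regions kept their direction in 5 of the 10. COL2A1, the cartilage collagen, was not well above background in cortex at 80 d and read 7.83 ± 0.40 (SD, n = 4) at 145 d, while in brainstem it went from 8.20 ± 0.13 to 7.63 ± 0.39 (SD, n = 4). Plasma protein genes passed in 3 of 9 probes, all above and of 2 genes, a share of 33.3% near the 34.1% of all probes, and the mean of 8 of them was 7.89 to 9.43 and 9.22 to 9.73 in cortex and 10.13 to 13.37 and 11.05 to 11.26 in brainstem. Their part in the results for PTGDS, TF, IGF2 and SERPINA1 was not tested. Without the 2 brainstem arrays at 80 d with high plasma proteins, replicates 3 and 4, an alternative chosen after seeing the data, 4402 probes passed, 4169 of them among the 5122, and of the genes named above GRIA1, CRYAB and the VDUP1 probe of the stress hormone list lost their call.

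For some genes a probe carried the strand opposite to that of a brighter probe. GAPDH, a glycolytic enzyme, was among the named genes with the largest rises in brainstem only: 8.08, 8.09, 8.15 and 8.15 at 80 d and 9.74, 9.49, 10.02 and 9.56 at 145 d, against 8.62, 8.65, 9.63 and 8.77 and then 8.21, 8.24, 8.80 and 8.61 in cortex (difference -2.04, SE 0.28, adjusted p = 5.97e-05). Its 2 probes share 23 and 20 bases, in reverse complement, with each of 2 brighter probes that the files name by accession only. The levels above are those of the probe with 20 shared bases. The other, with a difference of -1.96 (adjusted p = 0.00027), is shown because it shares more, with the 23 bases in capitals:
GAPDH probe: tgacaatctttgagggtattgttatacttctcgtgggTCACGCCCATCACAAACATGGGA
opposite-strand probe: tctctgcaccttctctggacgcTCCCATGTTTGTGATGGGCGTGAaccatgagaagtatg

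The opposite-strand probe read 14.58 on average over the 16 arrays, rose by 0.71 in cortex and fell by 0.40 in brainstem (difference 1.11), so that the probes of the pair differed in direction. Which strand the transcript lies on was not tested. The brainstem rise is therefore that of the probes named GAPDH, and was not shown for the messenger. A search made after these values were seen found 34 pairs of probes that share at least 20 bases in reverse complement, 15 of them at least 3 log2 units apart. Of the 13 dimmer probes in those 15 pairs, 9 passed, each with the cortex change below the brainstem change, against 16.6% below among all probes, and their median difference was -0.83 (range -2.37 to 0.05). Of the 13 brighter ones 5 passed, each above, with a median of 0.27. The dimmer partners of RPS2, RPL4 and ATP1B1, which encode 2 ribosomal proteins and a sodium pump subunit, had differences of -2.37, -1.72 and -2.00, where RPS2, RPL4 and ATP1B1 themselves had 0.46, 0.42 and 0.80.

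**Figure D5:**
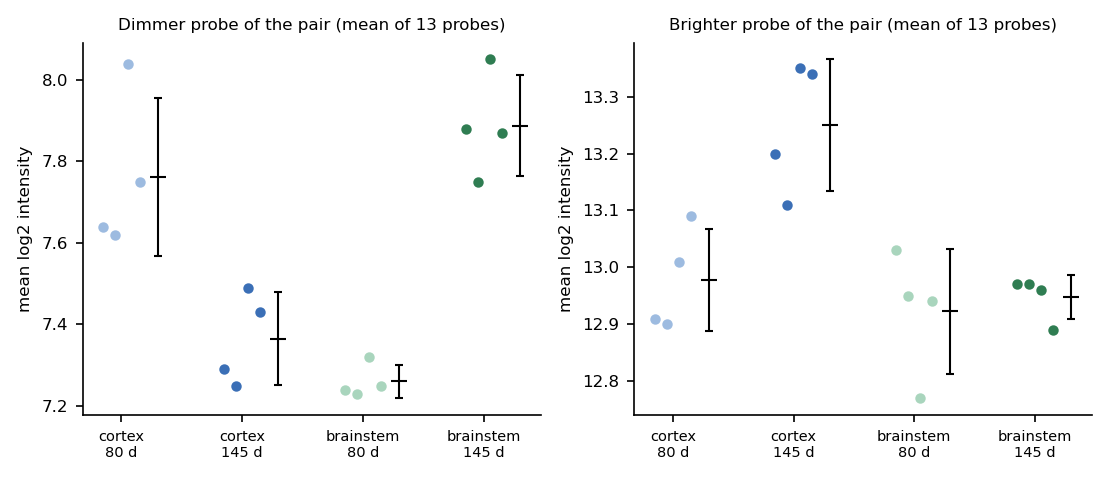
Mean level (vertical axis, log2 intensity) on each array of the 13 dimmer and the 13 brighter probes of 15 opposite-strand pairs, with bars for the mean ± SD of 4 arrays. The dimmer probes read 7.62 to 8.04 and 7.25 to 7.49 in cortex at 80 and 145 d and 7.23 to 7.32 and 7.75 to 8.05 in brainstem, with no overlap between the ages in either region, while the brighter ones lie between 12.77 and 13.35.

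Other genes of the brainstem rise are set beside this. EEF1A1, the elongation factor of translation, passed on 2 probes (differences -2.76 and -2.53) but not on another (0.30, adjusted p = 0.451), and AQP8, a water channel, passed as a brainstem rise on 1 probe (difference -2.04) and as a cortex fall on the other (-1.26). The strand read by the EEF1A1 and AQP8 probes was not tested. These values are therefore those of the probes, and were not shown for the messengers. Over the 750 probes designed on RefSeq messengers 31.1% passed, 21.3% above and 9.73% below, and over the 13101 probes designed on expressed sequence tags 34.7% passed, 17.5% above and 17.2% below. Brainstem-only rises made up 3.6% of the first and 6.49% of the second, and cortex-only falls 1.87 and 4.85%.

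The widest opposite changes of all were read by probes that carry an accession only. The 2 largest in each direction are shown, the first 2 rising in cortex and the last 2 falling there:
probe A: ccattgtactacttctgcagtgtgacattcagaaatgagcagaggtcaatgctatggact
probe B: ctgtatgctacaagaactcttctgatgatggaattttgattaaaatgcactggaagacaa
probe C: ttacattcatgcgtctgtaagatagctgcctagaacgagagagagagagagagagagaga
probe D: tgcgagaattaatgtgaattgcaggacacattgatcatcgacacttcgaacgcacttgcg

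Probe A read 10.96, 11.63, 10.74 and 11.45 in cortex at 80 d and 15.01, 14.85, 14.69 and 14.46 at 145 d, and 13.60, 13.63, 13.50 and 13.23 and then 13.03, 12.67, 12.41 and 12.15 in brainstem, with no overlap between ages. Its difference was 4.48 (SE 0.29, adjusted p = 1.68e-07), and that of probe B 4.08 (adjusted p = 9.89e-06). Probe C, whose last letters alternate between g and a, changed by -3.63 and 1.81 (difference -5.44, SE 0.21, adjusted p = 1.25e-09). Probe D changed by -3.81 and 1.60 (difference -5.41, SE 0.55, adjusted p = 4.91e-06), with 11.84, 12.84, 13.47 and 14.02 in cortex at 80 d and 9.55, 8.54, 9.69 and 9.17 at 145 d. Whether probe D reads a messenger or a ribosomal RNA was not tested.

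At 130 d against 100 d the differences of probes A to D had the same signs, at 1.75, 2.28, -2.23 and -1.27, and that of probe D did not pass (adjusted p = 0.568). The cortex changes kept their direction, whereas the brainstem changes of 0.04 for A, -0.29 for C and -1.17 for D did not. Probe C is also in one of the 34 opposite-strand pairs, sharing 22 bases with a dimmer probe that changed by 0.84 in cortex and 0.21 in brainstem (difference 0.63).

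Among the 37 genes named for the size of their difference, 36 had the same sign at 130 d against 100 d and 19 passed there, all with the same sign. Under median centring all 37 kept their sign and 21 their call. SST, IGFBP6, CPE, TM7SF2, IGF2, GJB2, ADCYAP1, GRIA1, RPS26, IDH1, EEF1A1, GRIA3, SERPINA1, PTGDS, TF and CONNEXIN 43 then missed the threshold.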

How the data were processed

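RNA of each sample was labelled with Cy3 and hybridized to a 1-colour sheep array of 60-base probes. Per the file headers the scanner software was version 10.1.1.1. The deposited values used here are each spot's mean and local background intensity, written by the authors' scanner software and not yet normalized. The authors also deposited a table of log2 values (11138 probes), which served as an alternative.

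Intensities of 95 arrays were background-corrected (normexp, offset 50) and quantile normalized in R 4.3.3 with limma 3.58.1. Control spots (536) and outlier-flagged spots were dropped, and the 15208 gene spots averaged to 15008 probes without a brightness filter. A probe missing on an array was fitted on the rest (114 probes). A model over 16 arrays was tested with lmFit and eBayes, with Benjamini-Hochberg adjustment over all probes at 0.05. The median residual SD was 0.161 on the log2 scale, and 4 arrays a group limit the precision. The steps were checked on simulated data. In all 1562 probes (967 genes) were named, 693 by RefSeq accession and the rest by identifier, symbol or the file's name.

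A fold bound set the brighter group against the lowest signal well above background (median 6.43). Genes named were the 6 largest differences in each opposite direction, the 5 largest in each class of 1 region and the 5 largest of the same direction. From each gene list up to 4 genes with the largest difference were named. NPY, GAL, OXT, NPC2, NR3C1, FGFR1, FGFR2, TGFB1 and others outside this rule were named after their values were seen. The members and lists were chosen with earlier results of these data known. Alternatives covered offset, scaling, filter, fit, blocks and each array left out. Plots were drawn with matplotlib 3.10.9.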

Additional observations from a re-analysis of the deposited data

Results flagged for a closer look

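In 148 groups of 4 arrays, of the 37 genes named for their difference, 9 held an array far from the others, where chance gives about 1 in 20. The gap to the nearest array, as a share of the group's range, was 0.842 for SLIRP in cortex at 80 d (replicate 1, 13.67 against 14.04 to 14.11), 0.853 for IGF2 in cortex at 80 d (replicate 2, 8.05 against 8.85 to 8.98) and 0.976 for BCL2 in brainstem at 80 d (replicate 4, 10.99 against 11.38 to 11.39). It was 0.851 for GAPDH in cortex at 80 d (replicate 3, 9.63 against 8.62 to 8.77) and 0.855 for TAC1 in cortex at 80 d (replicate 2, 10.35 against 8.01 to 8.35). SERPINA1 held such an array in both cortex groups, at 0.937 in cortex at 80 d (replicate 1, 7.52) and 0.89 in cortex at 145 d (replicate 3, 6.30, not well above background). In brainstem at 145 d it was 0.936 for TUBA4A (replicate 1, 10.02 against 9.79 to 9.80) and 0.833 for TF (replicate 3, 17.12 against 17.55 to 17.64).

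The change differed between the regions, by the test of the difference itself, in 5122 probes. Among the named genes the opposite class gave differences of 3.49 for SST, 3.41 for CRHBP, 3.26 for CA11, 2.73 for AREG, 2.25 for IGFBP6 and 2.09 for CPE, and of -3.49 for INHBA, -2.51 for SERPINC1, -2.39 for GGTA1, -1.79 for SLIRP, -1.59 for DKC1 and -1.53 for TM7SF2. Genes of cortex alone gave 4.39 for IGF2, 3.60 for PTGS2, 2.76 for GJB2, 2.74 for ADCYAP1, 2.70 for FOS, -2.07 for GRIA1, -1.95 for BCL2, -1.36 for COL4A3, -1.16 for RPS26 and -1.05 for IDH1. Genes of brainstem alone gave -2.76 for EEF1A1, -2.33 for SLC16A1, -2.04 for AQP8, -2.04 for GAPDH, -1.76 for GRIA3, 4.17 for NEUROD1, 3.56 for PRL, 2.79 for SERPINA1, 2.52 for TAC1 and 2.37 for TFAP2A. Genes that moved the same way gave 3.47 for PTGDS, 3.39 for TUBA4A, 2.61 for TF, -2.39 for CX32 and 1.82 for CONNEXIN 43.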

How the results depend on the processing

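Median centring without quantile normalization left 374 differences (120 above, 254 below), 1167 changes in cortex and 1345 in brainstem. Its classes held 5 probes up in cortex and down in brainstem, 21 the reverse, 42 and 73 up and down in cortex only, 139 and 64 up and down in brainstem only, and 11 of the same direction. One fit over 95 arrays gave 1489 (933 above, 556 below), 2114 and 2551, and classes of 88, 41, 313, 190, 234, 423 and 52 in the same order, with 62.7% of calls above. The scanner's processed signal gave 5969 and moved only the brainstem rises, to 1641. The cause was not tested. The other settings gave 4402 to 5958, and leaving out each array 4591 to 5105.

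Of the 92 named probes, only 26 kept their call under median centring, while 60 kept the sign without the call and 6 turned. The fit over 95 arrays kept 42 calls and lost 50, with no sign turned. Signs turned under median centring for ADRB1 (-0.18), CRHR1 (-0.36), CR2 (-0.45), VIM (-0.27), ITGAM (-0.16) and IRF1 (-0.20). Under the processed signal they turned for CD86 (0.14) and VIM (-0.045). Leaving out each array lost a call in 78 of 1472 cases and turned no sign. With an adjusted p of 0.01, 3244 of 3430 probes (94.6%) had the same sign at 130 d against 100 d.

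Cortex and brainstem of an age came from the same fetuses, but the replicate numbers did not show which arrays match: 1 of 8 same-numbered pairs correlated over 0.1 (-0.18 to 0.24). The replicate block by number alone gave 5244 calls, and by age and number together 4693. Slide as a block gave 5958. Dim probes limit the folds, since 1150 of 15008 were not well above background on any array.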
